A study of Homo sapiens with 12 samples.

Results

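The comparison described here is that of MDVR cells against LNCaP-abl cells (Abl), both under a control siRNA, and it uses 6 of the 12 arrays of the series. It takes the arrays titled M-NT, replicates 2, 3 and 4, against those titled A-NT, replicates 1, 2 and 3. LNCaP is a human prostate cancer cell line that responds to androgen, and both lines descend from it. Abl cells were grown in 10% charcoal-stripped serum, from which most steroid hormone has been removed, and received no enzalutamide. MDVR cells were grown in 10% fetal bovine serum and were selected from LNCaP over a long culture in 25 microM enzalutamide (MDV-3100), an antagonist of the androgen receptor, which was lowered to 10 microM for the experiments. All arrays came from cells transfected with 25 nM siRNA, and RNA was taken 72 h later. The 6 arrays used here had the non-targeting control (siNT), and the other 6 had 1 siRNA against the transcription factor GATA2 (siGATA2). Serum, enzalutamide and line changed together, so their shares in any difference cannot be told apart. Each resistant state is represented by 1 derived line, and no label says that replicate arrays came from separate cultures, so the tests speak only of the spread among these arrays.

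The androgen receptor is a hormone-activated transcription factor that drives secretory genes of the prostate luminal cell, among them the kallikreins and prostatic acid phosphatase. Therapy that lowers androgen or blocks the receptor selects cells that grow without normal hormone input. Such cells may keep the receptor active, use related receptors, or change how they take up lipid, make steroids and use glucose.

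The Illumina BeadChip gives a fluorescence intensity and a detection p for each probe. Between 19103 and 20513 probes were detected per array over the series, 40.4% to 43.3% of those present. Median raw intensity was 125.6, 127.3 and 133.6 on the Abl siNT arrays and 137.5, 140 and 143 on the MDVR siNT arrays. Every MDVR array was thus brighter before normalization than every Abl array. Of 47323 probes, 19916 had a detection p under 0.05 on at least 3 of the 6 siNT arrays, and these gave 11255 genes with 1 probe each. Across probes, log2 intensities correlated at r = 0.989 to 0.992 between Abl arrays, at 0.992 between MDVR arrays and at 0.935 to 0.938 between the lines. Values below are background-corrected, quantile-normalized log2 intensities, listed for Abl replicates 1, 2 and 3 and then MDVR replicates 2, 3 and 4, and a difference is MDVR minus Abl on the log2 scale. Precision is limited by the 3 arrays per group, with a median standard error (SE) of 0.129 for a difference.

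The lines differed in 6041 of the 11255 genes (limma, adjusted p under 0.05), which is 53.7% of those tested. Of these, 3023 were higher in MDVR (26.9%) and 3018 lower (26.8%). The difference was at least 2-fold for 719 genes higher in MDVR (6.39%) and 803 lower (7.13%), 13.5% of genes in all. That count depends on the background correction and was 579 without one and 427 on the authors' own normalized values. For 58.5% of genes the 3 arrays of one line did not overlap the 3 of the other, and 5802 of the 6041 calls were of this kind. The median difference of all genes was 0.02. The even split depends on the scaling of arrays: with median scaling the median gene moved to 0.14, and 3809 genes were then higher and 2228 lower. Only 1628 genes passed when the test asked for more than a 1.5-fold difference. A gene list is therefore read against a background in which a majority of genes was called. The shares of all genes, 26.9% higher and 26.8% lower, are those to set beside every list count below.

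Among genes detected on all 6 arrays, the largest rise was that of ATP1B1 and the largest fall that of NDP. ATP1B1, the beta subunit of the sodium pump, had log2 intensities of 6.99, 6.69 and 7.03 in Abl and 13.52, 13.53 and 13.47 in MDVR. The MDVR arrays were all far above the Abl arrays, a rise of 6.60 (SE 0.10, adjusted p = 2.35e-19). PLOD2, an enzyme that hydroxylates lysines of collagen before cross-linking, read 6.13, 5.75 and 6.39 in Abl and 11.43, 11.69 and 11.62 in MDVR. It rose by 5.49 (SE 0.22), and its Abl arrays spread more than its MDVR arrays. MARCKS, a membrane protein that binds actin and is a substrate of protein kinase C, read 6.92, 6.89 and 7.06 in Abl and 11.62, 11.65 and 11.62 in MDVR. Its rise was 4.68 (SE 0.09), and MSN (moesin), which ties actin to the membrane, rose by 3.41. KIF1A, a motor of axonal transport, rose by 5.26, and LIN7A, a scaffold of cell polarity, rose by 4.77. The transcription factor SOX8 rose by 4.02 (1.89 under the setting with the smallest difference) and EEF1A2, a translation elongation factor, by 3.34. A pair of urea cycle enzymes also belonged to the 15 largest rises. ASS1, which makes argininosuccinate, read 7.89, 8.42 and 8.25 in Abl and 11.70, 11.73 and 11.73 in MDVR, a rise of 3.53 (SE 0.11). CPS1, which makes carbamoyl phosphate in the first step of that cycle, read 6.38, 6.24 and 6.17 in Abl and 10.19, 9.87 and 9.84 in MDVR, a rise of 3.71 (SE 0.12). The 15 rises were completed by the RNA-binding protein RBM24 (3.70), CRACR2B (4.44), PRUNE2 (3.47) and the RNAs PPP3CA-DT (4.62) and FAM238B (3.38).

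**Figure D1:**
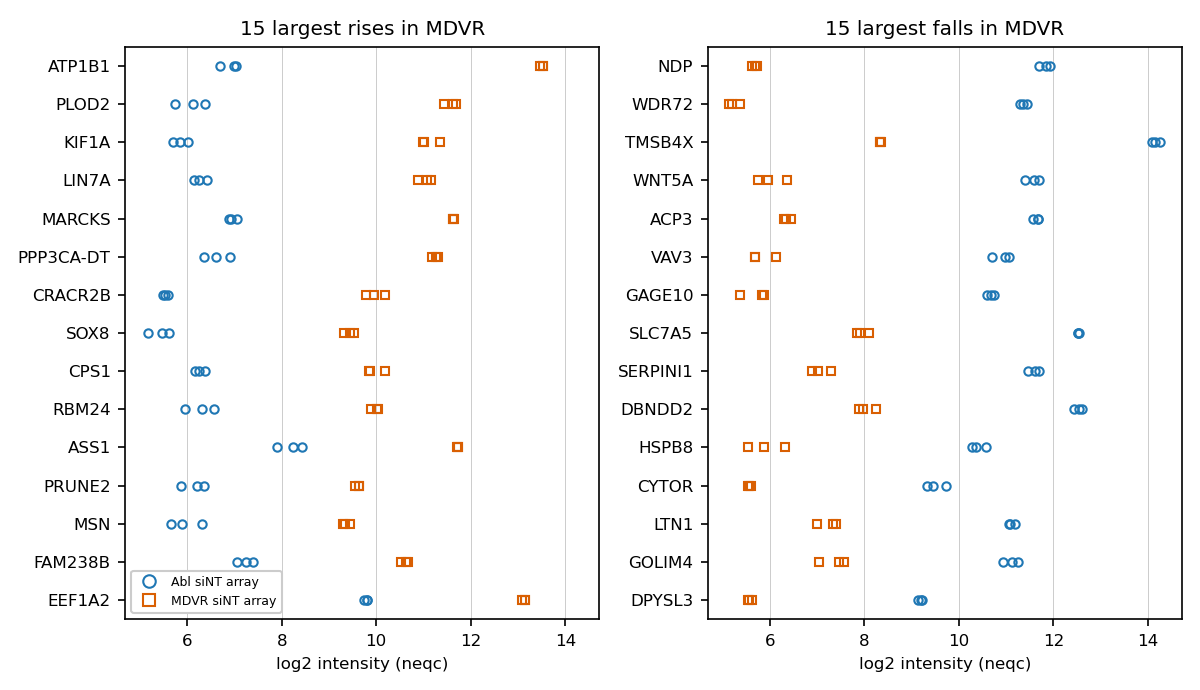
Normalized log2 intensity (horizontal axis) of the 15 genes with the largest rises (left) and the 15 with the largest falls (right) in MDVR, among called genes detected on all 6 arrays. Each circle is an Abl siNT array and each square an MDVR siNT array, and in every gene shown the 3 squares lie wholly to one side of the 3 circles.

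Among the falls, NDP (norrin, a secreted ligand of the receptor FZD4) read 11.70, 11.93 and 11.84 in Abl and 5.63, 5.73 and 5.68 in MDVR. The MDVR arrays lay near the lowest detected intensities, and NDP fell by 6.14 (SE 0.12, adjusted p = 4.77e-18). WNT5A, a secreted WNT ligand, read 11.59, 11.70 and 11.40 in Abl and 5.74, 6.37 and 5.96 in MDVR and fell by 5.54 (SE 0.14). TMSB4X, thymosin beta 4, which binds actin monomers, read 14.08, 14.26 and 14.15 in Abl and 8.36, 8.34 and 8.33 in MDVR. It was bright on the Abl arrays and fell by 5.82 (SE 0.07). ACP3, prostatic acid phosphatase, read 11.68, 11.67 and 11.58 in Abl and 6.45, 6.33 and 6.29 in MDVR, and it fell by 5.28 (SE 0.09). SLC7A5, a transporter of large neutral amino acids, read 12.53, 12.51 and 12.53 in Abl and 8.10, 7.90 and 7.85 in MDVR, and it fell by 4.57 (SE 0.08). The other large falls included VAV3 (-5.08), SERPINI1 or neuroserpin (-4.52), the small heat shock protein HSPB8 (-4.49), LTN1, a ubiquitin ligase of stalled ribosomes (-3.86), and DPYSL3, a protein of axon growth (-3.61). WDR72 (-6.13), DBNDD2 (-4.49), the Golgi protein GOLIM4 (-3.74), the long noncoding RNA CYTOR (-3.94) and GAGE10 (-4.98) made up the rest. GAGE10 has near-identical copies, so the source of its signal is uncertain.

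Some genes were detected in 1 line only: 229 on all 3 MDVR arrays and no Abl array (214 of them called), and 293 on all 3 Abl arrays and no MDVR array (285 called). Choosing genes by detection in 1 line makes a call likely, so the numbers called add no support. For these genes only a lower bound of the fold is given, the mean of the detected line over the floor of the other line. On each array the floor is the dimmest detected probe or, where higher, the gene's own value. In MDVR the homeobox factor IRX4 was at least 60.7-fold higher (adjusted p = 9.20e-19), with values of 4.68, 4.46 and 4.46 in Abl and 11.01, 11.03 and 11.03 in MDVR. CLDN3, a claudin of tight junctions, was at least 38.9-fold higher. The formin INF2 was at least 14.8-fold higher, the membrane metalloproteinase MMP16 at least 14.2-fold and the glutamate receptor partner NETO1 at least 12.8-fold. Enzymes of amino acid breakdown stood among the first 10 as well: HGD of tyrosine breakdown at least 12.3-fold, AGXT at least 11.1-fold and alanine aminotransferase GPT at least 9.53-fold. The kinase MAPK13 and ZNF558 were at least 9.64-fold and 10.4-fold higher. In the other direction, the cancer-testis gene PAGE1 was at least 124-fold lower in MDVR (adjusted p = 1.52e-20), with values of 12.14, 11.98 and 11.97 in Abl and 4.68, 4.65 and 4.58 in MDVR. MAGEA4, of the same class, was at least 81.5-fold lower. NTS, the precursor of the peptide neurotensin, was at least 43-fold lower, with values of 10.45, 10.55 and 10.49 in Abl and 4.55, 4.52 and 4.48 in MDVR. The 10 largest bounds also included HTATIP2 (at least 43.4-fold), the RNA export factor NXF2 (42-fold), MALL (40.9-fold), the branched-chain aminotransferase BCAT1 (34.1-fold), the epithelial transcription factor ELF5 (31.4-fold), the necroptosis effector MLKL (26.7-fold) and CTAG2 (23-fold).

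Both lines carried luminal genes, with summed linear intensities over the luminal list of 22062 to 23236 in Abl and 22007 to 23688 in MDVR. Of 14 luminal marker genes tested, 7 rose and 4 fell, and the median was 0.22 against 0.02 for all genes. Without Abl replicate 3 or with median scaling 2 fell, and over those detected on all 6 arrays 4 rose and the median was 0.04. KRT8, a keratin of luminal cells, read 11.33, 11.18 and 10.91 in Abl and 9.23, 9.50 and 9.49 in MDVR and fell by 1.74 (SE 0.10). Its partner KRT18 fell by 0.42 (adjusted p = 0.0363), a call lost under 6 alternative settings beside the minimum fold, among them the removal of Abl replicate 1 or 3 or of MDVR replicate 3. CDH1 (E-cadherin) rose by 0.51, CD24, a surface glycoprotein, by 3.12, and FOLH1, the prostate-specific membrane antigen, fell by 0.94 (SE 0.09). GATA2, the target of the other siRNA in the series, read 9.12, 8.80 and 8.82 in Abl and 8.88, 9.16 and 9.26 in MDVR. These values overlap, and the difference of 0.19 (95% interval -0.06 to 0.43, adjusted p = 0.185) was not called. Without MDVR replicate 2 it was 0.30 and passed (adjusted p = 0.0474).

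Markers of other cell types were few. Of 19 basal genes listed, 6 were tested, and neither of the basal keratins KRT5 and KRT14 nor TP63 was among them. EGFR, the epidermal growth factor receptor, rose by 1.47, and ITGA6, an integrin of the basement membrane contact, fell by 0.81. Summed linear intensities of those 6 genes were 744 to 955 in Abl and 694 to 737 in MDVR. Of 14 leukocyte genes 4 were tested (summed intensity 507 to 584 in Abl and 505 to 682 in MDVR); PTPRC, the pan-leukocyte marker, was not, and the T cell gene CD2 rose by 1.02 from low values (5.14, 5.30 and 4.92 in Abl and 6.22, 5.97 and 6.21 in MDVR). Of 12 endothelial genes 1 was tested and not called, and no fibroblast gene listed was tested. In bulk RNA, fewer cells of a kind and less RNA per cell cannot be told apart.

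The kallikreins are secreted serine proteases of the prostate, and KLK2 and KLK3 (prostate-specific antigen) are classical targets of the androgen receptor. The receptor binds paired half-sites, and the 250 bases before the start of each of these genes (RefSeq, GRCh38.p14) hold 1 match to the letters GNACA, any 4 bases and GTNC. The match is in capitals in both sequences, which are given because androgen acts on these promoters. The KLK3 stretch is chr19:50854665-50854914 on the plus strand, with the match starting 169 bases before the gene, and the KLK2 stretch is chr19:50873189-50873438 on the plus strand, with the match 175 bases before it. The matched letters are identical in both, and the KLK4 stretch holds no match.
KLK3: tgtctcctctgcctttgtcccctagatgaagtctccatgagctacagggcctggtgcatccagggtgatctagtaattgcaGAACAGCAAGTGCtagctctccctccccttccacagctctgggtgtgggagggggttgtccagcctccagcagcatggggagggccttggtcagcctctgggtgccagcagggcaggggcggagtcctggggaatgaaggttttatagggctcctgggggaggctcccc
KLK2: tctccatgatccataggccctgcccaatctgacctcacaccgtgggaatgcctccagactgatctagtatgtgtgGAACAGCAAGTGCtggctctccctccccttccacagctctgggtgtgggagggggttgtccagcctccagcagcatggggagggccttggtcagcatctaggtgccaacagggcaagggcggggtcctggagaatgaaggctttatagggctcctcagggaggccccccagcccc
Read on both strands, these letters occur in 480 of 27305 promoter stretches (1.76%), in 138 of the 9090 tested genes that have one (1.52%) and in 2 of 5 tested kallikreins. A match describes letters only, and neither binding there nor any part in these differences was tested.

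In MDVR 5 of 6 tested kallikrein genes were higher (median 1.23, or 1.08 with undetected members at their bounds), of 16 listed. Of the 6, 3 were detected in MDVR alone and passed the probe filter only through those arrays, which favours a call of higher. With detection on all 6 arrays 1 gene was left, and at a minimum fold of 1.5, 3 were higher. On the authors' normalized values the median was 0.27, and with uncorrected background it was 0.42. KLK4, a protease of the same secretory set, read 8.97, 9.10 and 9.30 in Abl and 11.74, 11.78 and 11.87 in MDVR. Each MDVR array was above each Abl array, and the rise was 2.67 (SE 0.11, adjusted p = 2.72e-13). KLK2 read 4.51, 4.51 and 4.46 in Abl and 6.35, 6.44 and 6.29 in MDVR, and it was detected on the MDVR arrays only. It was at least 2.4-fold higher (adjusted p = 4.82e-08). KLK3 read 4.53, 4.64 and 4.49 in Abl and 5.29, 5.44 and 5.64 in MDVR, again detected in MDVR alone and at least 1.28-fold higher (adjusted p = 0.000507). Both were dim in these cells, close to the lowest detected intensities. Under the setting with the smallest difference KLK2 rose by 0.43 and KLK3 by 0.20 on the log2 scale, less than these bounds. The pseudogene KLKP1 was at least 2.48-fold higher and KLK15 rose by 0.91. KLK15 was not detected on all 6 arrays, and its rise was 0.19 under the setting with the smallest difference. KLK10 differed by 0.31 (95% interval -0.15 to 0.77) and was not called. Probes of these near copies may share signal.

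Genes that androgen induces moved both ways. Of 32 tested, with KLK2, KLK3 and KLK4 among them, 15 rose, 9 fell and 8 were not called (75% called). The median was 0.20, or 0.12 at the bounds and 0.08 with no background correction. PMEPA1, a membrane regulator of TGF-beta signalling, was detected on 1 Abl array and all MDVR arrays and rose by a measured 3.32 (SE 0.19), which was 1.09 under the setting that gave the smallest difference. Its values were 4.40, 4.59 and 5.17 in Abl and 8.05, 8.05 and 8.02 in MDVR. Opposite to the kallikreins, ACP3 had the largest fall of the list, and MSMB, a secreted protein of seminal plasma, fell by 2.18. MSMB was not detected on all 6 arrays, and its fall was 0.63 under the setting with the smallest difference. The metalloreductase STEAP2 (-1.42) and the ubiquitin-conjugating enzyme UBE2J1 (-1.88) were lower as well. TMPRSS2, a membrane serine protease, differed by 0.04 (95% interval -0.18 to 0.26, adjusted p = 0.796). FKBP5, a chaperone partner of steroid receptors, read 8.59, 8.67 and 8.99 in Abl and 8.97, 9.11 and 9.06 in MDVR. Its arrays overlap, and the rise of 0.30 (adjusted p = 0.0337) was lost under 6 settings beside the minimum fold, including the removal of Abl replicate 1 or 2 or MDVR replicate 3 or 4. Secretory markers thus did not move as a block: KLK2, KLK3 and KLK4 were higher in MDVR and ACP3 and MSMB lower.

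Genes that androgen represses fell more often than they rose, 10 against 7 of 19 tested, with a median of -0.42 (-0.36 at the bounds, -0.26 with no background correction and -0.16 in the authors' table). DDC, which makes dopamine and serotonin, read 13.19, 13.16 and 13.18 in Abl and 9.98, 10.00 and 10.00 in MDVR and fell by 3.19 (SE 0.06, adjusted p = 5.83e-18). The opioid receptor gene OPRK1 fell by 2.88. NTS and the glucuronidation enzymes below belong to the same list. BCHE (butyrylcholinesterase), named after its values were seen, had the largest rise of the list, 2.09, with values of 5.24, 5.34 and 5.02 in Abl and 7.18, 7.30 and 7.40 in MDVR.

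Enzymes that make and remove steroids moved both ways. Of 25 tested, 8 rose, 9 fell and 8 were not called (median 0.14, 0.07 with no background correction or without MDVR replicate 4). The share called was 68%, against 53.7% of all genes. UGT2B enzymes attach glucuronic acid to androgens and so clear them. UGT2B17 read 13.52, 13.67 and 13.65 in Abl and 11.20, 11.02 and 11.24 in MDVR, and it fell by 2.46 (SE 0.08, adjusted p = 1.19e-14). UGT2B15 fell by 2.19 (SE 0.11), UGT2B10 fell by 2.00 and UGT2B11 fell by 2.24, though the probes of UGT2B11 were called in opposite directions. UGT2B28 rose by 1.05, and the sequences of this family are close enough for probes to share signal. AKR1C3 converts weak androgens to testosterone and read 5.29, 5.47 and 5.34 in Abl and 8.15, 7.74 and 7.94 in MDVR. All 3 MDVR arrays were more than 2 log2 units above each Abl array, and the rise was 2.58 (SE 0.14, adjusted p = 1.82e-11). It was 0.89 under the setting that gave the smallest difference. HSD17B1, which reduces estrone to estradiol, rose by 1.48. Of the UGT2B genes, 4 were thus lower and 1 higher in MDVR, with UGT2B4 not called.

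Transcription factors of the prostate lineage changed mostly by small amounts. Of 15 tested, 8 rose and 2 fell, with a median of 0.25 (0.42 with median scaling). FOXA1, a pioneer factor at androgen receptor sites, was higher by 0.25 (SE 0.07), and HOXB13, a homeobox factor of prostate, fell by 0.29 (adjusted p = 0.016), a call lost with median scaling (-0.17), with the replicate block, and without Abl replicate 3 or MDVR replicate 2. SOX4 had the largest change: it read 7.78, 8.05 and 7.95 in Abl and 10.46, 10.73 and 10.46 in MDVR, a rise of 2.63 (SE 0.12). MYB, which is known from blood progenitors and from some castration-resistant tumours, fell by 2.09. PITX1 rose by 0.68, TBX3 by 0.67 and ONECUT2 by 0.80, and SOX9 was detected in MDVR alone, at least 1.69-fold higher. MYC, the growth regulator, rose by 0.57 (SE 0.08), EZH2, the methyltransferase of Polycomb, by 0.48, and CCND1 (cyclin D1) by 0.26, the last lost without MDVR replicate 3 (0.19).

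Surface antigens of prostate cells fell more often than they rose, 13 against 4 of 24 tested (median -0.61). The median was -0.24 with no background correction and -0.16 in the authors' table. STEAP1, a surface target in prostate cancer, read 12.73, 12.94 and 12.84 in Abl and 11.39, 11.38 and 11.54 in MDVR and fell by 1.40 (SE 0.08). TSPAN8, a tetraspanin, was at least 4.37-fold lower. The 4 that were higher were CLDN3, CD24, the serine protease hepsin (HPN, 1.65) and the tetraspanin CD9 (0.35). CD24 read 7.19, 7.44 and 7.01 in Abl and 10.16, 10.49 and 10.35 in MDVR. The calcium-binding S100P read 5.69, 6.05 and 5.87 in Abl and 9.19, 8.53 and 8.57 in MDVR, a rise of 2.89 (SE 0.17).

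The glucocorticoid receptor can take over some androgen receptor targets in resistant cells. The gene of that receptor itself is not reported here. Of 18 genes tested from the list drawn up for it and its targets, 11 rose, 4 fell and 3 were not called (median 0.36, and 0.19 on the authors' values). Without MDVR replicate 3, 7 rose, as with the replicate block. CEBPD, a transcription factor induced by glucocorticoid, rose by 2.81 (SE 0.17), the repressor BCL6 by 2.22, NR3C2, the mineralocorticoid receptor, by 1.58, TSC22D3 (GILZ) by 0.83 and the phosphatase DUSP1 by 0.70. The 4 that fell were the kinase SGK1 (-0.81), RGS2 (at least 2.26-fold), STOM (-1.07) and TXNIP (-0.61). SGK1 and BCL6 thus went opposite ways although both are known glucocorticoid targets.

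Most genes of cholesterol synthesis and uptake were lower in MDVR. The list holds targets of the SREBP factors, which switch on synthesis when sterol is scarce. Of 29 tested, 19 fell and 1 rose, against 26.8% of all genes lower, and the median was -0.64. With median scaling 18 fell and 4 rose, and the median was -0.48. INSIG1, which holds SREBP in the endoplasmic reticulum and is itself an SREBP target, read 12.42, 12.38 and 12.46 in Abl and 10.19, 10.13 and 10.37 in MDVR. It fell by 2.19 (SE 0.08, adjusted p = 3.89e-14). LSS, which closes the sterol rings, read 9.38, 9.62 and 9.60 in Abl and 7.79, 7.75 and 7.82 in MDVR, and it fell by 1.75 (SE 0.09). HMGCS1, at the start of the pathway, read 11.25, 11.27 and 11.29 in Abl and 9.85, 10.00 and 10.00 in MDVR, and it fell by 1.32 (SE 0.07). The values of the lines did not overlap in any of these genes. MVD, a decarboxylase of the mevalonate steps, fell by 1.74, or by 0.51 under the setting with the smallest difference. LPIN1, a phosphatidate phosphatase under SREBP control, fell by 1.45. The member that rose was NPC1, which carries cholesterol out of the lysosome. NPC1 read 8.54, 8.73 and 8.80 in Abl and 10.83, 10.68 and 10.99 in MDVR, a rise of 2.14 (SE 0.10, adjusted p = 1.14e-12). Its partner NPC2 was among the 19 that fell (-0.37). SREBF2, the gene of the main sterol SREBP, differed by 0.05 and was not called.

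Genes of sterol export were also mostly lower, 4 of 6 tested with 1 higher (median -0.31, and 2 lower with median scaling). They are driven by LXR receptors when sterol is plentiful, the reverse of the SREBP condition. ABCA1, the cholesterol efflux pump, read 9.18, 8.95 and 8.91 in Abl and 5.77, 6.12 and 5.44 in MDVR. It fell by 3.23 (SE 0.15, adjusted p = 1.11e-12). LPCAT3, which remodels phospholipids, fell by 1.14, and NR1H3, the gene of LXR alpha, fell by 0.35, a call lost with median scaling (-0.22). ABCG1, another efflux pump, fell by 0.27, a call lost under 8 settings beside the minimum fold, including the removal of Abl replicate 2 or 3 or MDVR replicate 2 or 4. MYLIP, which degrades lipoprotein receptors, rose by 0.50. Fatty acid genes were split, with 15 higher, 21 lower and 10 not called of 46. In all, 78.3% were called against 53.7% of all genes, and the median was -0.16 (0 with median scaling). SCD, the desaturase of stearate, fell by 0.79 (SE 0.07), ACSL4, which activates arachidonate, fell by 3.04, and the peroxisomal lyase HACL1 fell by 1.63. ACSL4 was not detected on all 6 arrays, and its fall was 1.12 under the setting with the smallest difference. The mitochondrial reductase DECR1 fell by 0.95 while HADH of beta oxidation rose by 0.98. The peroxisomal oxidase ACOX2 and the lipogenic factor THRSP were detected in MDVR alone, at least 8.62-fold and 7.22-fold higher.

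The hypoxia and glycolysis genes went the other way. Hypoxia-inducible factors (HIFs) bind the core letters ACGTG and raise glucose transport, glycolysis and blood vessel signals when oxygen is low. The 250 bases before the start of BNIP3, PLOD2 and ANKRD37, known hypoxia targets that rose here, are given from RefSeq (GRCh38.p14), with ACGTG on either strand in capitals. BNIP3 lies at chr10:131981924-131982173, minus strand, with 2 matches, the first 134 bases before the gene. PLOD2 is at chr3:146161185-146161434, minus strand, with 2 matches, the first 200 bases before it. ANKRD37 is at chr4:185396591-185396840, plus strand, with 3 matches, the first 162 bases before it. The palindrome CACGTG holds ACGTG on both strands and counts as 2 matches.
BNIP3: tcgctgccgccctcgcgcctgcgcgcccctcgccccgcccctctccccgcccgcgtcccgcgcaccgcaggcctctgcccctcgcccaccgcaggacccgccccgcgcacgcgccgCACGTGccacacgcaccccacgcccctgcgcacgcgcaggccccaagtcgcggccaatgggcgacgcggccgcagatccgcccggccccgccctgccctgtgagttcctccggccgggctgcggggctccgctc
PLOD2: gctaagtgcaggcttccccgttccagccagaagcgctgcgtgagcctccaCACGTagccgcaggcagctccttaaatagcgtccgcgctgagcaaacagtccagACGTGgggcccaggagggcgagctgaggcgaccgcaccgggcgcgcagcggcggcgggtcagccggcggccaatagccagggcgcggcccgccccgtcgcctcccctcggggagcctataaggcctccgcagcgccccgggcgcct
ANKRD37: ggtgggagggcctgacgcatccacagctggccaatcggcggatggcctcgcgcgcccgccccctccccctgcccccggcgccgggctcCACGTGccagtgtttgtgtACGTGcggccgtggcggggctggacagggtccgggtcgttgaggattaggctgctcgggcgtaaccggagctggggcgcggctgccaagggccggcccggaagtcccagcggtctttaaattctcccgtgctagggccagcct
ACGTG on either strand is common: 5101 of 27305 promoter stretches hold it (18.7%), and 2184 of the 9090 tested genes with one (24%). Of the 38 tested hypoxia members with a stretch 17 hold it (44.7%), and of the 29 of these that were higher in MDVR 13 do (44.8%), nearly the same share. These shares describe letters only.

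Of 43 hypoxia and glycolysis genes tested, 33 rose and 4 fell, against 26.9% of all genes higher, and the median was 0.73. VEGFA, the vascular growth factor, read 7.89, 8.20 and 7.98 in Abl and 10.97, 10.86 and 10.89 in MDVR, a rise of 2.88 (SE 0.11, adjusted p = 1.51e-13). PFKFB4, which sets the activator of phosphofructokinase, read 7.91, 8.00 and 8.05 in Abl and 10.27, 10.50 and 10.20 in MDVR and rose by 2.33 (SE 0.13). BNIP3, a receptor of mitophagy, read 12.50, 12.50 and 12.55 in Abl and 13.91, 13.85 and 13.90 in MDVR, and it rose by 1.37 (SE 0.08). In each, all MDVR arrays lay above all Abl arrays. ANKRD37, named for its promoter after its values were seen, rose by 1.90 (SE 0.14). PFKP, a phosphofructokinase, rose by 1.76 and DDIT4, an inhibitor of mTOR signalling, by 1.14. Among members named after their values were seen, HIF1A rose by 1.13, the glucose transporter SLC2A1 by 1.38, hexokinase HK2 by 1.39, LDHA by 0.53 and GAPDH by 0.35. The 4 lower members were carbonic anhydrase CA12, EPAS1, ENO2 and HK1. CA12 read 10.25, 10.33 and 10.11 in Abl and 8.42, 8.39 and 8.51 in MDVR, and it fell by 1.79 (SE 0.09). EPAS1, the gene of HIF-2 alpha, was detected in Abl alone and was at least 1.77-fold lower, so HIF1A and EPAS1 differed in opposite directions. ENO2 fell by 0.66 and HK1 fell by 0.63, in contrast to the other hexokinase.

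**Figure D2:**
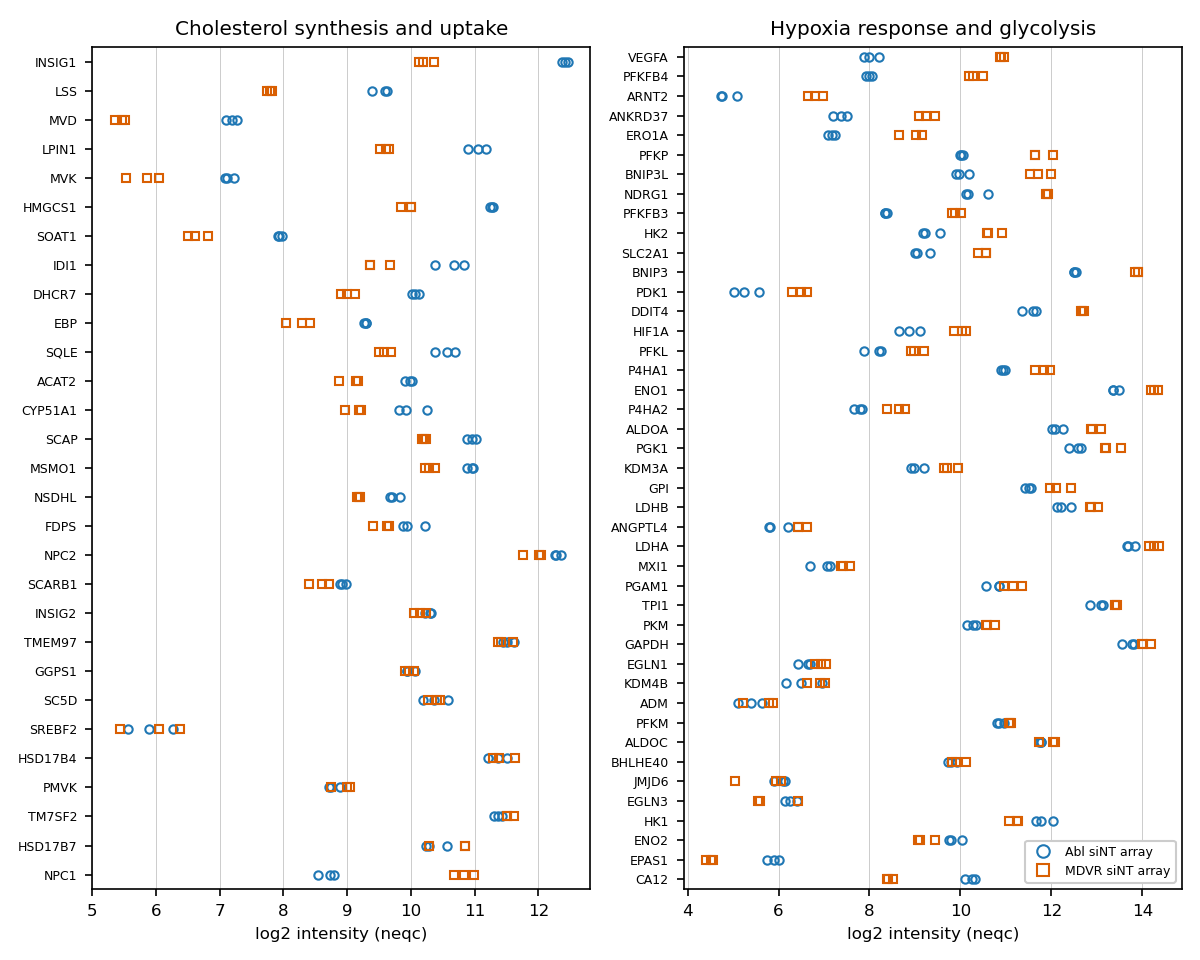
Normalized log2 intensity (horizontal axis) of each tested gene of cholesterol synthesis and uptake (left) and of hypoxia and glycolysis (right) on the 3 Abl (circles) and 3 MDVR (squares) siNT arrays. MDVR was called lower for 19 of the 29 sterol genes and higher for NPC1, and higher for 33 of the 43 hypoxia genes, with CA12, EPAS1, HK1 and ENO2 lower.

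Among p53 targets, 14 of 28 tested rose, 2 fell and 12 were not called (median 0.33, or 0.31 at the bounds, 0.19 with no background correction and 0.13 in the authors' table). The share called was 57.1%, near the 53.7% of all genes. GDF15, a stress-induced secreted factor, read 9.74, 9.96 and 10.03 in Abl and 12.81, 12.82 and 12.78 in MDVR and rose by 2.89 (SE 0.08, adjusted p = 1.05e-15). CDKN1A (p21), which inhibits cyclin-dependent kinases, read 10.93, 11.19 and 11.13 in Abl and 12.65, 12.61 and 12.69 in MDVR, a rise of 1.57 (SE 0.08). GADD45A, induced by DNA damage, rose by 1.59 and cyclin CCNG1 by 0.64, and the apoptosis effector BAX was detected in MDVR alone, at least 5.4-fold higher. The nuclease AEN and the autophagy factor TP53INP1 were the members that fell (-0.67 and -0.67). MDM2, the ubiquitin ligase of p53, differed by -0.34 and was not called.

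For G2/M and mitosis 21 of 67 rose and 10 fell, so 31 of 67 were called against the background of 53.7%, with a median of 0.13 (0.08 with no background correction). Those lower numbered 5 without Abl replicate 2 or MDVR replicate 2 and 4 with median scaling. CENPF, a kinetochore protein, rose by 1.27 (SE 0.12), cyclin CCNB1 by 1.15, the topoisomerase TOP2A by 0.87 and the checkpoint gene MAD2L1 by 0.78. The centromere gene CENPN fell by 0.63 and BORA, an activator of Aurora A, fell by 1.01. FOXM1, a transcription factor of mitotic genes, differed by 0.08 (95% interval -0.22 to 0.39, adjusted p = 0.654). In S phase and replication 25 of 53 rose, 7 fell and 21 were not called (60.4% called, median 0.29, 0.18 with no background correction). The helicase subunit MCM3 rose by 0.84 (SE 0.08), uracil glycosylase UNG by 0.91, and RPA2 and RFC4 by 0.58 and 0.74. Geminin (GMNN), which blocks relicensing of origins, fell by 0.91, and the histone mRNA binder SLBP fell by 0.65.

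Type I interferon response genes were lower for 17 of 35 tested and higher for 7 (median -0.41, -0.16 with no background correction). Over those detected on all 6 arrays 11 were lower. The ubiquitin ligases HERC5 (-2.06, SE 0.12) and HERC6 (-2.36) fell, HERC6 by 0.80 under the setting with the smallest difference. IFIT2, which binds foreign RNA, read 8.13, 8.34 and 8.35 in Abl and 5.91, 5.52 and 6.03 in MDVR and fell by 2.45 (SE 0.15). IFIT1 fell by 1.53, or by 0.40 under the setting with the smallest difference. PARP14 was at least 5.45-fold lower. Against these, the secreted LGALS3BP was detected in MDVR alone, at least 3.66-fold higher. HLA and antigen presentation genes leaned upward, 10 of 19 higher and 3 lower (median 0.34, 0.19 with no background correction). HLA-B, a classical class I chain, read 6.45, 6.94 and 7.34 in Abl and 9.31, 9.44 and 9.55 in MDVR. Its Abl arrays ranged over almost 1 log2 unit, and it rose by 2.52 (SE 0.17). HLA-F rose by 2.25 (SE 0.12), HLA-G by 1.66, HLA-C by 1.14 and the peptide editor TAPBPL by 1.32. Probes of HLA genes can share signal between loci and depend on the allele. The light chain B2M differed by -0.09 and was not called, and the 3 that fell were the chaperone CALR (-0.53), TAPBP (-0.36) and PSME2 (-0.22).

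Cancer-testis antigens are germ cell genes that tumours can express. Of 55 listed 25 were tested, 15 of them lower, 1 higher and 9 not called (median -0.51, -0.28 over those detected on all 6 arrays), and 7 were detected in Abl alone. Beside PAGE1, MAGEA4 and CTAG2, MAGEA1 fell by 3.40 (SE 0.11), and GAGE2A (-2.65) and GAGE12J (-2.10) were lower as well. The higher member was MAGEA3 (0.22). Probes of the GAGE and MAGE families can share signal. Among HOX genes, 5 of 10 fell and 3 rose (80% called against 53.7% of all genes, median -0.21). HOTAIR, the noncoding RNA of the HOXC cluster, read 7.68, 7.54 and 7.28 in Abl and 4.47, 4.40 and 4.45 in MDVR and was at least 5.38-fold lower. HOXC6 fell by 0.75, HOXC13 fell by 0.56 and HOXB7 fell by 0.81, whereas HOXB5 rose by 1.18 (detected on 2 Abl arrays), HOXB6 by 0.84 (on 1) and HOXC4 by 0.68. The rise of HOXB6 was not called with the mean over its probes (0.46).

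Neuroendocrine and neuronal genes were divided, 6 higher and 7 lower of 18, with 72.2% called against 53.7% of all genes. The median was -0.02 (0.10 with median scaling). Among those detected on all 6 arrays the median was 0.48. SYT4, of vesicle fusion, rose by 3.15 (SE 0.16), the secreted VGF by 1.71 and tubulin TUBB3 by 1.69, while NTS, DDC and DPYSL3 were lower. INSM1, a neuroendocrine transcription factor, differed by 0.51 and was not called. In epithelial junctions 13 of 32 rose and 10 fell, with 71.9% called against 53.7% of all genes. The median was 0.22 (0.11 with no background correction). The repressor OVOL2 rose by 2.36 (SE 0.09) and the desmosomal cadherins DSC2 and DSG2 by 2.07 and 0.89, against falls of CLDN8 (-3.05) and cingulin CGN (-1.59). Claudins therefore differed in both directions, with CLDN3 detected in MDVR only and CLDN8 lower there.

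Of 10 mesenchymal genes tested, 4 rose and 4 fell (median 0.27, and -0.61 over those detected on all 6 arrays). The 4 that rose were COL6A1, COL5A1, COL6A2 and VIM, vimentin (0.58). COL5A1 and COL6A2 were each detected on 1 Abl array and all MDVR arrays, so their measured differences of 3.26 and 1.48 depend on the background, and other settings gave as little as 1.09 and 0.33. COL6A1, a chain of collagen VI, read 4.74, 5.49 and 5.26 in Abl and 9.27, 9.25 and 9.18 in MDVR, with only 2 Abl arrays detected and a measured difference of 4.08. Those that fell were the smooth muscle genes ACTA2 (-1.37) and TAGLN (-0.77), the integrin ITGA5 (-0.61) and SNAI2 (-0.60). The list of growth factor ligands had 8 higher and 9 lower of 19 (median 0.04, and -0.15 over those detected on all 6 arrays). Beside VEGFA and GDF15, the activin subunit INHBB rose by 2.47 (SE 0.14) and KITLG, the ligand of KIT (detected on 1 Abl array), by 2.03. Under the settings with the smallest difference these rises were 0.87 and 0.52. FGF13, which is on the list although it is not a secreted ligand, rose by 1.75, and FGF18 fell by 2.63. In WNT, Notch and hedgehog signalling 9 of 28 rose, 6 fell and 13 were not called (median 0.06, and 0 with cyclic loess). The share called was 53.6%, against 53.7% of all genes. The Notch ligand JAG1 fell by 1.65 (by 0.43 under the setting with the smallest difference) while the receptor NOTCH3 rose by 1.15 and the target HES4 by 2.02. FZD4, the receptor of norrin, rose by 1.62 as NDP fell, and RNF43, which removes frizzled receptors from the surface, fell by 2.25. ID1, an inhibitor of basic helix-loop-helix factors, was detected in Abl alone and was at least 2.08-fold lower in MDVR.

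**Figure D3:**
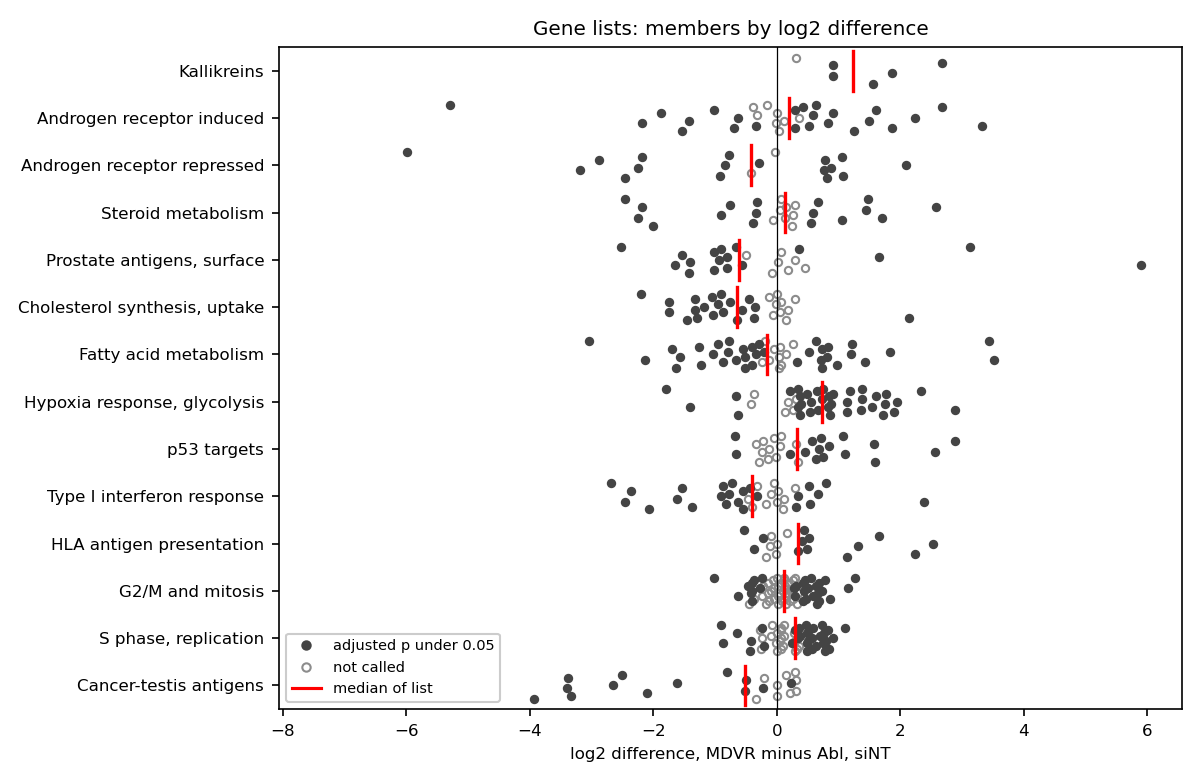
Log2 difference, MDVR minus Abl under siNT (horizontal axis), of each tested gene in 14 lists (rows). Filled points passed an adjusted p under 0.05, open points did not, and the red bar is the list's median. Hypoxia (0.73) and kallikreins (1.23) lie to the right, and cholesterol synthesis (-0.64), prostate antigens (-0.61) and cancer-testis antigens (-0.51) to the left. Genes detected in 1 line, 3 of the 6 kallikreins among them, are plotted at their measured difference, which is no bound.

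The siGATA2 arrays are of the same lines and share no array with the siNT group means. Both comparisons come from the same fit, with joint normalization, a shared estimate of each gene's spread and a probe filter set on the siNT arrays. Their calls are therefore not independent. On the siGATA2 arrays 6452 genes differed between the lines (57.3%). Of the 6041 siNT calls, 4801 were called there in the same direction and 68 in the opposite one. The difference between the lines itself depended on the siRNA for 798 genes (7.09% of those tested), 554 of them called under siNT. Without Abl siGATA2 replicate 4 the 798 became 511. ATP1B1 differed by 6.60 under siNT and 5.03 under siGATA2. VEGFA differed by 2.88 and 2.74, NPC1 by 2.14 and 2.31 and ABCA1 by -3.23 and -3.59. The change between the siRNAs was not called for these last 3, with 95% intervals of -0.48 to 0.19, -0.12 to 0.46 and -0.80 to 0.07. KLK2 and KLK3 were not detected on any siGATA2 array of either line, and the dependence on the siRNA was called for KLK2 (adjusted p = 0.000203) and not for KLK3 (adjusted p = 0.0789). The AKR1C3 difference was 2.58 under siNT and 1.33 under siGATA2 (adjusted p of the change = 0.000559). TOP2A, CCNB1 and CENPF went the other way, to 2.78, 2.72 and 2.50.

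**Figure D4:**
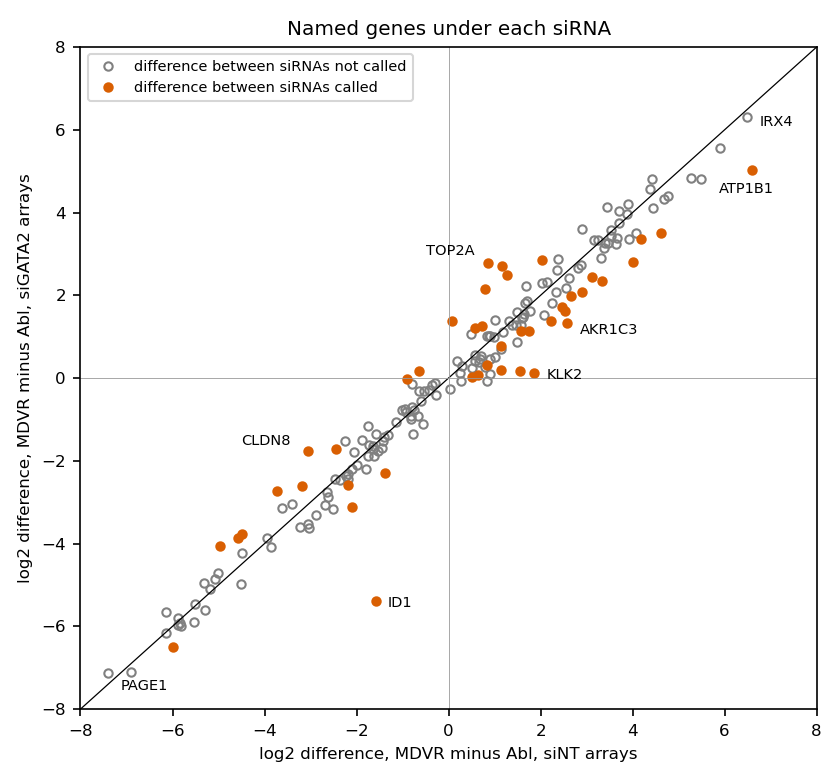
Log2 difference, MDVR minus Abl, under siNT (horizontal axis) and under siGATA2 (vertical axis) for the 189 genes chosen by the naming rule, with the line of equal values. Filled points are the 43 genes whose line difference depended on the siRNA (adjusted p under 0.05), such as ID1, TOP2A and KLK2, and most others lie near the line. Genes not detected in a group, such as KLK2, are at their measured difference.

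Calls were not spread evenly over the chromosomes, a description made after the values were seen. On chromosome 15, 186 of 356 genes tested were lower in MDVR (52.2%) and 41 higher (11.5%), with a median difference of -0.36. The siGATA2 arrays gave 49.7% lower and 13.2% higher there, with a median of -0.31. WDR72, the second largest fall among genes detected on all 6 arrays, lies on that chromosome. Chromosome 8 had 39.6% lower and 19% higher, and chromosome 22 had 38.6% lower and 17.1% higher. In the other direction, chromosome 6 had 38.3% higher and 20.9% lower, chromosome 1 35.8% higher and 19.8% lower, and chromosome 19 30.6% higher and 15.9% lower. Over all genes the shares were 26.9% and 26.8%. MARCKS, VEGFA, SOX4, CD24 and the HLA genes lie on chromosome 6, and the kallikreins and BAX on chromosome 19.

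**Figure D5:**
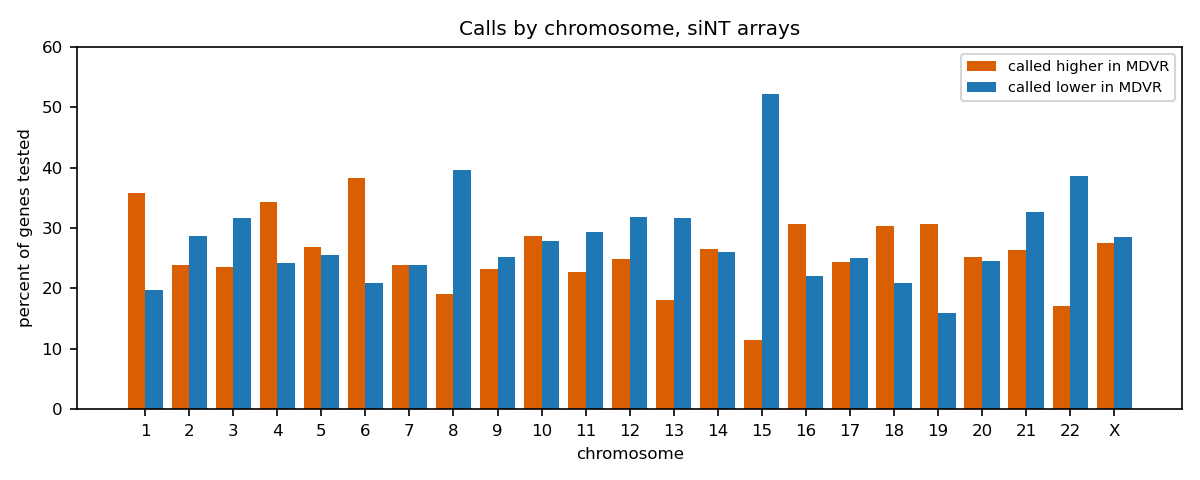
Percent of tested genes called higher (orange) and lower (blue) in MDVR under siNT, for each chromosome (horizontal axis). Chromosome 15 stands at 52.2% lower and 11.5% higher, while chromosomes 1, 6 and 19 have more genes higher than lower.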

How the data were processed

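RNA of 12 samples was read on Illumina BeadChips, 3 per line and siRNA. The non-normalized table holds, per the file headers, a linear probe intensity and a detection p-value (in steps of 1 in 770) for each sample as deposited by the authors. A second deposited table holds the authors' normalized values, treated as log2. Per the submitters' processing notes lumi was used, with version not given in the sources used here and the transform unknown. Probe symbols came from the platform table, in which 16973 of 16978 probes have 1 symbol and 5 have several. Of the 19916 probes kept, 14881 had 1 symbol, and the other 5035 (1013 higher, 777 lower in MDVR) are not named.

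Intensities were corrected and quantile-normalized with neqc in limma 3.58.1 (R 4.3.3; offset 16, background level inferred from detection p-values). The probe filter asked for detection (p under 0.05) on 3 or more of the 6 siNT arrays, and the brightest represented its gene. For 2941 genes with several probes, 49 had probes called in opposite directions. limma's lmFit and eBayes (with trend) fitted 4 group means to all 12 arrays, and every adjusted p is limma's, with Benjamini-Hochberg adjustment over the 11255 genes. The fit alone was also run on simulated normalized values. Background correction, quantile normalization and the probe filter were not part of that check, which does not speak for them.

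Named genes were the 15 largest rises and falls among called genes detected on all 6 arrays without overlap, the 10 with the largest bounds each way, up to 6 called members of each list with the smallest adjusted p, and a set of single genes of prostate and cell biology. BCHE, ANKRD37, HIF1A, SLC2A1, HK2, LDHA, GAPDH, NPC2, HK1, ENO2, UGT2B4 and the members of small counts were named after their values were seen. Some genes of that set are not reported here. Members and lists were chosen with earlier results of these data known. The siNT groups share replicate numbers 2 and 3 only, and deviations of same-numbered arrays correlated at -0.124 and -0.0403. Over all 14 same-numbered pairs of the 4 groups r was -0.211 to 0.135, with 1 over 0.1, so the numbers were not taken to pair samples. Promoters came from RefSeq (GRCh38.p14).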

Additional observations from a re-analysis of the deposited data

Results flagged for a closer look

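Of the 189 genes chosen by the naming rule, 43 had a line difference that depended on the siRNA (limma interaction, adjusted p under 0.05, against 7.09% of all genes). The rule chose genes partly by the size or p of the siNT difference, which is also part of this contrast. The share among named genes therefore cannot be compared with that of all genes. The value in brackets is the difference, MDVR minus Abl, under siGATA2 minus that under siNT, on the log2 scale. Of the 798 genes with this call 267 were called with the replicate block, whose numbers were not found to pair the samples.

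Of the cell cycle genes named, these 6 had a larger difference under siGATA2: TOP2A (1.91), CCNB1 (1.57), MAD2L1 (1.37), CENPF (1.23), FOXM1 (1.28) and RFC4 (0.53). TOP2A differed by 0.87 under siNT and 2.78 under siGATA2. For GMNN (0.88) and CENPN (0.81), which were lower in MDVR under siNT, the lines differed by -0.02 and 0.17 under siGATA2. The rises of MYC (0.65) and KITLG (0.82) were larger as well.

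Genes with a smaller rise under siGATA2 were the kallikreins KLK2 (-1.74), KLKP1 (-1.37) and KLK4 (-0.69), the steroid enzyme AKR1C3 (-1.25), and ATP1B1 (-1.57), EEF1A2 (-0.99), PPP3CA-DT (-1.11), SOX8 (-1.21), NETO1 (-0.82), INHBB (-0.75) and FGF13 (-0.61). KLK2 and KLKP1 were detected on the MDVR siNT arrays alone, and NETO1 on no Abl array, so the sizes of their changes are uncertain. The same held for GDF15 (-0.82), CDKN1A (-0.42) and CCNG1 (-0.57) among p53 targets, BCL6 (-0.85) and TSC22D3 (-0.51) among glucocorticoid genes, HLA-B (-0.90) and HLA-C (-0.94), and CD24 (-0.68), CDH1 (-0.49) and DDIT4 (-0.36). Probes of kallikrein and HLA genes may share signal.

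The largest change was that of ID1 (-3.80), with -1.59 under siNT and -5.38 under siGATA2; it was not detected in MDVR under siNT, so the size is uncertain. Larger falls under siGATA2 were those of MYB (-1.02), ACTA2 (-0.91), INSIG1 (-0.39) and NTS (-0.52), the last not detected in MDVR. Smaller falls were those of CLDN8 (1.29), DDC (0.57), SLC7A5 (0.71), GOLIM4 (1.00), GAGE10 (0.92), IFIT2 (0.74) and HSPB8 (0.71).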

How the results depend on the processing

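Alternatives changed the background correction, array scaling, detection filter, probe choice, variance model, arrays fitted and replicates. The number of genes called under siNT lay between 5138 and 6114 beside the 6041 reported, apart from 1628 with a minimum fold of 1.5, and was 5516 to 5712 with single siNT replicates left out. Under siGATA2 it was 1869 with the minimum fold (6452 reported). The dependence on the siRNA was called for 66 genes with the minimum fold and for 511 to 743 with 1 replicate left out, lowest without Abl siGATA2 replicate 4 (798 reported). With the replicate block, which uses numbers not found to pair the samples, 5384 genes were called under siNT, 5795 under siGATA2 and 267 for the dependence. Genes differing at least 2-fold numbered 1522, against 579 with no background correction, 847 with normexp, 427 on the authors' values and 989 with detection on all 6 arrays.

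No called named gene changed sign. Sizes depended on the setting, which the SE does not cover. Under the setting with the smallest difference, HLA-G rose by 0.565, NR3C2 by 0.545, HSD17B1 by 0.491 and EGFR by 0.411, and RNF43 fell by 0.764. TMPRSS2 and FOXM1, not called, ranged from -0.05 to 0.17 and from -0.03 to 0.20. With detection on all 6 siNT arrays the medians of 4 lists changed sign, to 0.48 for neuroendocrine, -0.61 for mesenchymal, -0.15 for growth factor ligands and 0.10 for basal genes; this filter leaves out genes detected in 1 line. The basal median, from 6 genes, was -0.29 to 0.041 with single replicates left out, the highest without Abl replicate 2, and the leukocyte median, from 4 genes, was 0.13 with the mean over probes. With median scaling the leukocyte median was 0.08. The kallikrein median was 0.42 without background correction and 0.27 on the authors' values, on which the hypoxia median was 0.50 and the cholesterol median -0.44. At a minimum fold of 1.5, 38 named genes lost their call. The cause was not tested for these changes. Dim genes such as KLK2 and KLK3 are limited by signal over background.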

Other observations

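Nuclear receptor genes rose in 14 of 23 tested and fell in 4, with a median of 0.61 (0.56 at the bounds) against 0.02 for all genes. NR1D2, a repressor of the circadian clock, rose by 1.68. NRF2 and glutathione genes fell more often than they rose, 15 against 8 of 30 (median -0.24). The glutathione transferases GSTM1 and GSTM2 differed by -3.34 and -2.70, GSTA4 rose by 1.64, and GCLC, of glutathione synthesis, was lower (-1.46). GSTM genes are near copies, and their probes may share signal.

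Genes of the unfolded protein response were divided, 10 higher and 14 lower of 36 (66.7% called against 53.7% of all genes, median -0.07). DDIT3 (CHOP), a stress transcription factor, rose by 1.99, and SDF2L1, of the endoplasmic reticulum, was lower (-1.59). Heat shock genes were lower for 10 of 23 and higher for 5 (median -0.12), among them HSPA2 (-2.10). Of 23 arginine and polyamine genes, 9 rose and 3 fell (52.2% called against 53.7% of all genes, median 0.17). Beside ASS1, ornithine aminotransferase OAT rose by 1.83. MYC and ribosome genes were higher for 13 and lower for 9 of 42 (52.4% called, also near the share of all genes, median 0.06).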
